A study of Saccharomyces cerevisiae with 6 samples.

Results

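The 10 silencing factors of chromosome ends examined here are *SIR1*, *SIR2*, *SIR3*, *SIR4*, *RIF1*, *RIF2*, *HST1*, *SAS2*, *DOT1* and *ESC1*, chosen by name for their known roles, out of 6685 open reading frames among 8898 counted features. RNA-seq of total RNA compared *RRP4* cells with *rrp4-G226D* cells of budding yeast, with 3 libraries per genotype. All 6 cultures were haploid BY4742 cells (MATα, ura3Δ0, leu2Δ0, his3Δ1, rrp4Δ::NEO by their labels) in which a Myc-tagged copy of *RRP4* or *rrp4-G226D* on a *LEU2* centromeric pRS315 plasmid was the sole source of Rrp4, an essential subunit of the RNA exosome. The cells were grown for 5 h at 37°C in minimal medium lacking leucine, a temperature at which the mutant grows poorly, so that every difference below is between cells that also differ in growth. The comparison asks how far the mRNAs of the silencing machinery differed between the genotypes, and whether lower silencing factor mRNA was found together with higher RNA from genes near chromosome ends.

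Silencing in budding yeast is built from a few proteins. Rap1 binds the repeats at chromosome ends and the silencers beside the silent mating loci *HML* and *HMR*, and brings in Sir4 and Sir3. Sir2 is an NAD-dependent deacetylase of the histone H4 tail, Sir3 binds the deacetylated nucleosome, and Sir4 holds both. Sir1 helps to start silencing at *HML* and *HMR* through the origin recognition complex. Rif1 and Rif2 bind Rap1 at chromosome ends, where they limit telomere length and compete with the Sir proteins. Hst1 is the closest relative of Sir2 and acts with Sum1 and Rfm1 at individual promoters. Sas2 acetylates the H4 residue that Sir2 deacetylates and Dot1 methylates histone H3, and both keep Sir proteins from spreading. Esc1 anchors silent chromatin at the nuclear envelope.

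These are the sequences on which the factors act, shown because the readouts of silencing below lie beside them (R64 genome, RefSeq). The first is ARS317, the origin within the *HMR*-E silencer at chrIII:292638-292694, printed 5′ to 3′ on the minus strand with its match to the ARS consensus, the site of the origin recognition complex, in capitals. Of all 57-base windows of the nuclear genome, 0.312% hold such a match on either strand. The second is the last 80 bases of the right arm of chromosome VI, chrVI:270082-270161 on the plus strand, with the letters GGTGTG of the telomeric repeat in capitals. They occur 7 times in it, whereas 1.96% of 80-base windows hold GGTGTG at least once on either strand and 0.0219% hold it 7 or more times on a strand. The third is exon 1 of *HMRA1*, chrIII:293835-293939 on the plus strand, the 105 bases with which the silent **a**1 gene begins.
ARS317: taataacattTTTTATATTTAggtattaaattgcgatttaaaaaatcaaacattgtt
Chromosome VI right end: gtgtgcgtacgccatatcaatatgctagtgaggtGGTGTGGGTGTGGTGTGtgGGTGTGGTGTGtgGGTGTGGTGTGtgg
HMRA1 exon 1: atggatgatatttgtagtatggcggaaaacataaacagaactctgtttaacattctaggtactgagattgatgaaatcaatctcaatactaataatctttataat

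The libraries held 7663545 to 12181979 counts. The labels were checked first. *RRP4* mRNA was at 165 to 178 normalized counts (CPM after TMM scaling) in *RRP4* cells, and at 281 to 302 in the mutant, 0.79 higher on the log2 scale; both alleles are plasmid copies, and a gene count cannot tell them apart. The α-specific genes *MFALPHA1*, encoding the α pheromone precursor, and *STE3*, encoding the **a**-factor receptor, were at 1062 to 1483 and 110 to 157 normalized counts in every library. The **a**-specific *STE2* and *MFA1* were at 7.996 to 13.2 and 1.70 to 2.87. Of the other α-specific genes, *SAG1* was at 39.85 to 73.4 and *MFALPHA2* at 4.30 to 5.83, below *STE2*. Of the other **a**-specific genes, *STE6* was at 31.5 to 49.4 and higher in the mutant (0.48). *BAR1*, *AGA2*, *ASG7* and *MFA2* were at 0.51 to 9.33. *MFALPHA2* and *STE6* blur the separation, which otherwise goes with the MATα label. The study's strain list prints MATa, and adds lys2Δ0, for the *rrp4Δ* parent. The reading of *HMRA1* below takes the label, which most of these levels match. Of the mating-type genes, *SAG1* was called higher (0.75) and *MFA2* lower at 0.51 to 2.97 normalized counts (−1.09), a call lost without *RRP4* replicate 3 (−0.86) or *rrp4-G226D* replicate 2 (−0.79). TMM factors were 0.821 to 0.878 in *RRP4* and 1.15 to 1.20 in *rrp4-G226D* libraries, so the scaling matters: by library size alone the median log2 fold change of all tested features was 0.46, against 0.0094 with TMM. Values below are relative to the bulk of the transcriptome, and without added standards the RNA per cell was not measured. In bulk RNA, a change in the mix of cells and a change in RNA per cell cannot be told apart.

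None of the 10 silencing factors changed by 1.5-fold. In edgeR's quasi-likelihood test, where a call needed a 1.5-fold difference and a p below 0.05 after Benjamini-Hochberg adjustment over all features, 0 of 10 were called in either direction, beside which 12.7% of the 7631 features tested were called higher in *rrp4-G226D* cells and 11.3% lower; DESeq2 also called 0. Smaller differences were common. At an adjusted p below 0.05 and any fold, 7 of the 10 were higher (*SIR1*, *SIR3*, *SIR4*, *RIF1*, *RIF2*, *DOT1* and *ESC1*) and 1, *SIR2*, was lower, beside 28.6% of all features higher and 31.0% lower. Among the 5963 open reading frames tested, 1382 were higher and 2234 lower at any fold, and 5.4% and 12.9% were called. An unadjusted p below 0.05 was reached by 8 members, of which 0 changed by 1.5-fold, and DESeq2 gave 5 higher and 1 lower at an adjusted p below 0.05. The median log2 fold change of the 10 was 0.23, beside −0.07 for all open reading frames tested. All of each gene's 100-base windows occur once in the genome, so reads from copies elsewhere do not enter these counts. Reads from transcripts that overlap a gene, on either strand, may enter or be left out, since the strand setting is not given.

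**Figure D1:**
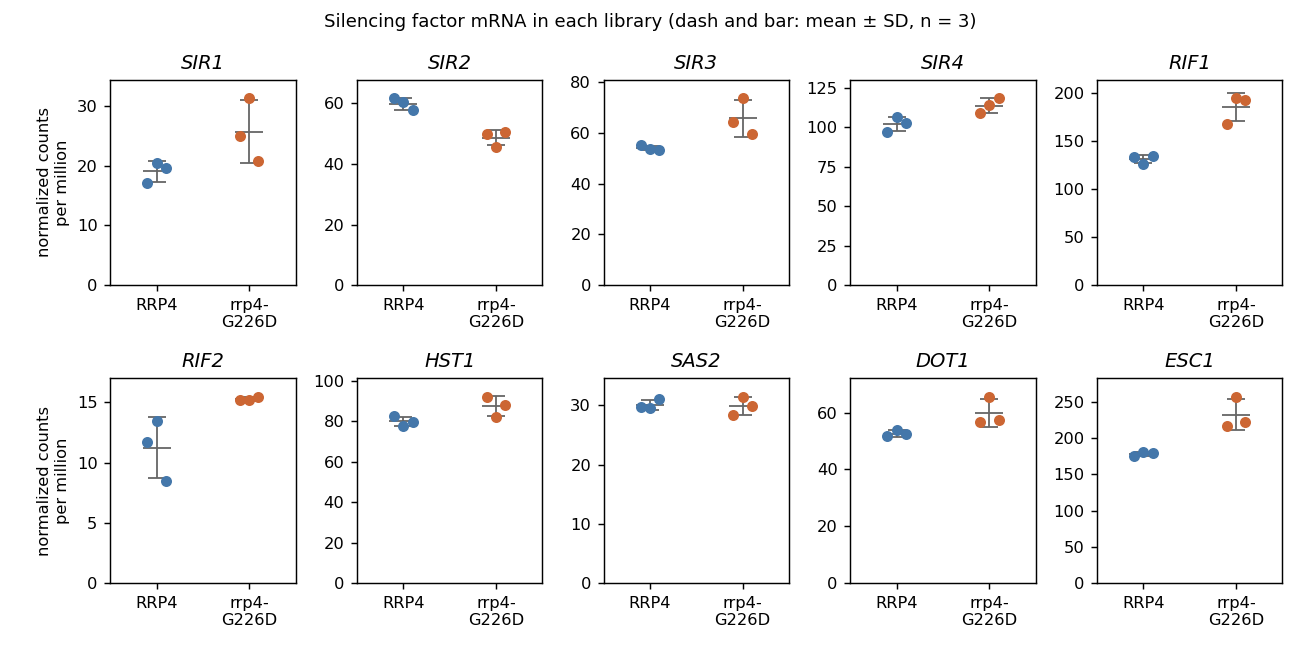
Normalized counts (CPM, vertical axis, from 0) of the 10 silencing factors in each library; points are libraries, blue for RRP4 and orange for rrp4-G226D, and the dash with its bar is the mean ± SD (n = 3). SIR2 is the gene whose 3 rrp4-G226D libraries (45.7 to 50.5) all lie below its RRP4 libraries (57.8 to 61.7), while RIF1 and ESC1 are clearly higher and SAS2 overlaps; by library size alone SIR2 too is higher, by 0.15 on the log2 scale.

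*SIR2*, the deacetylase at the centre of the complex, was the member that fell. Its normalized counts were 61.7, 60.3 and 57.8 in the *RRP4* libraries and 49.98, 45.7 and 50.5 in the *rrp4-G226D* libraries. The groups did not overlap, and every mutant library was below every control. The log2 fold change was −0.30 (SE 0.07, adjusted p = 0.00166 by edgeR), a level 1.23-fold lower, and leaving out each library in turn gave −0.33 to −0.27 with the adjusted p at most 0.00983. By library size alone the value turned to 0.15 (adjusted p = 0.0994), which was 0.31 below the median of all features, the same distance as with TMM.

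The partners of Sir2 moved the other way. *SIR3* was at 55.1, 53.7 and 53.4 normalized counts in *RRP4* cells and at 64.2, 73.6 and 59.5 in *rrp4-G226D* cells, with no overlap (log2 fold change 0.28, SE 0.08, adjusted p = 0.00591). *SIR4*, the scaffold, was at 97.4, 106 and 103 against 109, 114 and 118, a separation of the groups by less than the spread within them (0.16, SE 0.06, adjusted p = 0.0358). The *SIR4* difference passed an adjusted p of 0.05 in 2 of the 6 fits that leave out a library, reaching 0.176 without *RRP4* replicate 1, and DESeq2 gave 0.0759.

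Because the 3 Sir subunits assemble together, their mRNAs were also compared within each library, where no scaling enters; these ratios were chosen after the values were seen. Per kilobase, *SIR2* mRNA was 1.95, 1.95 and 1.88 times *SIR3* mRNA in *RRP4* cells and 1.35, 1.08 and 1.47 times in *rrp4-G226D* cells. Over *SIR4* it was 1.53, 1.37 and 1.36 times in *RRP4* cells and 1.11, 0.967 and 1.03 times in the mutant. Both ratios were lower in 3 of 3 mutant libraries than in any control, with an exact two-sided permutation p = 0.1, the smallest that 3 against 3 can give. Since *SIR2* was lower and *SIR3* and *SIR4* higher without overlap, this separation was fixed by the values above and lends no support. The ratio of *SIR3* to *SIR4* per kilobase was 0.735 ± 0.0448 in controls and 0.804 ± 0.0999 in mutants (SD, n = 3) and overlapped (exact permutation p = 0.4).

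*SIR1*, which works at the mating loci and not at most chromosome ends, was a low transcript at 17.1, 20.5 and 19.6 normalized counts in *RRP4* cells and 24.99, 31.3 and 20.8 in *rrp4-G226D* cells. The third mutant library was just above the highest control. The log2 fold change was 0.42 (SE 0.14, adjusted p = 0.0123), and it rested on single libraries: without *rrp4-G226D* replicate 2 it was 0.24 (adjusted p = 0.0965) and without *RRP4* replicate 1 it was 0.35 (adjusted p = 0.0613). *SIR1* itself lies 24.3 kb from the right end of chromosome XI, the nearest to an end of the 10 members. *RIF2*, *SIR3* and *RIF1* follow at 35.2, 55.9 and 56.1 kb, and the others lie 188 kb or more from an end.

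*RIF1* showed the largest rise of the group. Its normalized counts were 134, 127 and 134 in *RRP4* cells and 169, 195 and 193 in *rrp4-G226D* cells, with a wide gap between the genotypes. The log2 fold change was 0.49 (SE 0.06, adjusted p = 3.81e-06), or 1.41-fold, and stayed at 0.45 to 0.55 when each library was left out. *RIF2*, its partner on Rap1, was the least abundant member per library, at 11.8, 13.4 and 8.48 against 15.2, 15.2 and 15.5. Its controls were scattered, whereas the mutant libraries were nearly equal. The log2 fold change of *RIF2* was 0.42 (SE 0.14, adjusted p = 0.017), and without *RRP4* replicate 3, the lowest library, it was 0.27 (adjusted p = 0.108).

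The region upstream of these genes is shown for the member that rose most and for the one that fell, from 250 bases before to 50 bases after the coding start in R64 (chrII:757057-757356 for *RIF1* and chrIV:378396-378695 for *SIR2*, both on the minus strand), with the start codon in capitals. In *RIF1* the first block in capitals is an ACGCGT, the core of the MluI cell cycle box bound by the G1/S factor MBF, at −192 from the coding start. ACGCGT, which reads the same on both strands, is also upstream of *DOT1* at −173, so 2 of 10 members have it, beside 3.06% of 6005 promoters of the same length. TTACCCG, read on both strands as the core of a Reb1 site, was in 0 of the 10 windows and in 7.09% of all promoters. ACACCCA, read on both strands as the core of a Rap1 site, was upstream of *SAS2* at −207. In *SIR4* it was at 18, past the coding start and inside the coding sequence. The same windows of all promoters held it in 2.26%. No match overlapped another kind, and a match is a description of the letters only.
RIF1 upstream: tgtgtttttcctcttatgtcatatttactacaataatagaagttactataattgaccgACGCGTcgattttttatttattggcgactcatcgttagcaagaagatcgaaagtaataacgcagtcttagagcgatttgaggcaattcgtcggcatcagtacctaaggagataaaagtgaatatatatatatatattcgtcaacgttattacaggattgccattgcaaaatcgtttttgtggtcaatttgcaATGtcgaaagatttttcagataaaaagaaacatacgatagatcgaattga
SIR2 upstream: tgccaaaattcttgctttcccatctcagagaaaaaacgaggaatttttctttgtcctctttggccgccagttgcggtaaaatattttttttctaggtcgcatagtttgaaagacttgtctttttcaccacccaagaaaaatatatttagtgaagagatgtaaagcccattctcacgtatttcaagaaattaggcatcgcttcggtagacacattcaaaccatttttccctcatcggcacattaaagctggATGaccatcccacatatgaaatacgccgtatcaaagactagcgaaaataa

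The factors that limit or anchor silent chromatin included the most even and some of the most shifted transcripts. *ESC1*, the anchor at the nuclear envelope, was at 175, 181 and 180 normalized counts in *RRP4* cells and 217, 257 and 223 in *rrp4-G226D* cells. It was higher in 3 of 3 mutant libraries, with a log2 fold change of 0.38 (SE 0.07, adjusted p = 8.60e-05) that held without any library (0.29 to 0.41). *DOT1*, the histone H3 methyltransferase, was at 51.6, 53.8 and 52.3 against 56.6, 65.5 and 57.4 (0.19, SE 0.08, adjusted p = 0.0421). The second mutant library stood above the other two, and without it the *DOT1* value was 0.11 (adjusted p = 0.238); DESeq2 gave an adjusted p of 0.0899. *SAS2*, the H4 acetyltransferase, was at 29.7, 29.5 and 31.1 against 28.4, 31.5 and 29.9, a log2 fold change of −0.0055 (SE 0.09, adjusted p = 0.962). The range of ±1.96 SE for *SAS2*, −0.18 to 0.17, leaves room for changes of at least that size in either direction.

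*HST1*, the Sir2 relative that works with Sum1, was the most abundant member per kilobase. It was at 82.5, 77.8 and 79.7 normalized counts in *RRP4* cells and 92.2, 82.4 and 87.9 in *rrp4-G226D* cells, and the lowest mutant library was just below the highest control. The log2 fold change of *HST1* was 0.13 (SE 0.06, 95% interval 0.0032 to 0.26) with an adjusted p of 0.0928. It fell below an adjusted p of 0.05 without *rrp4-G226D* replicate 2 (0.0447), with TMM over open reading frames only (0.0105), under a stricter filter of 50 mean counts (0.0302) and by library size alone (1.69e-07).

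Of 9 genes known as targets of Hst1 and Sum1, 5 were called lower and 0 higher by edgeR at 1.5-fold, beside 11.3% of features lower overall. The 5 belong to the pathway that makes NAD from tryptophan: *BNA5* (−1.17), *BNA1* (−0.97), *BNA6* (−0.91), *BNA2* (−0.89) and *BNA4* (−0.74 on the log2 scale, all with the genotypes apart). *BNA5*, kynureninase, went from 110, 105 and 104 normalized counts to 48.9, 45.6 and 47.9. All 5 stayed lower by library size alone, by 0.29 to 0.72. The mid-sporulation targets *SMK1* (0.04) and *SPR3* (−0.0061) showed no such difference, at adjusted p of 0.904 and 0.976 by edgeR. *SPS4* (−0.58) and the nicotinic acid transporter gene *TNA1* (−0.34, or 0.11 by library size alone) were lower at an adjusted p below 0.05 by under 1.5-fold. The genotypes overlapped in *SPS4*, which passed in 2 of the 6 fits without a library (adjusted p up to 0.151). DESeq2 gave *SPS4* an adjusted p of 0.0578, and by library size alone it was at −0.13.

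Per kilobase, the members' levels in *RRP4* cells ran from 52.9 normalized counts for *HST1* through *ESC1* (35.9), *SIR2* (35.5), *DOT1* (30.1), *SAS2* (29.6), *SIR4* (25.1), *RIF1* (22.9) and *SIR3* (18.4) to *SIR1* (9.70) and *RIF2* (9.45). The libraries of *ESC1* and *SIR2*, of *DOT1* and *SAS2*, and of *SIR1* and *RIF2* overlapped, and the other neighbours in this order did not. In *rrp4-G226D* cells *SIR2*, at 28.8 per kilobase, stood in the sixth place in place of the third, among *SAS2* (29.4) and *SIR4* (27.9), whose libraries it overlapped. *RIF1* moved from the seventh place to the fourth, at 32.2, and overlapped *DOT1* (34.2) and *SAS2*. Both ends of the order were the same genes in each genotype.

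The other genes of silencing and telomere biology, 67 in all and all tested, held few calls: 1 was called higher and 2 lower at 1.5-fold, beside 12.7% and 11.3% of all features, and 29 were higher and 11 lower at an adjusted p below 0.05, beside 28.6% and 31.0%. Of the 5963 open reading frames tested, 5.4% were called higher and 12.9% lower, and 1382 were higher and 2234 lower at any fold. These are the shares against which each list below is to be read. Their median log2 fold change was 0.15. By library size alone, 34 were called higher and 0 lower, when 2880 features were called higher and 152 lower against 968 and 864 with TMM; 7 of the 10 members were then called higher.

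The proteins that bind silencers showed little movement at their centre. *RAP1* was at 122 to 128 normalized counts in *RRP4* and 124 to 136 in *rrp4-G226D* cells (0.06, adjusted p = 0.435), and *ABF1* overlapped too (−0.04, adjusted p = 0.672). Of 8 silencer-binding and origin recognition genes, 5 were higher at an adjusted p below 0.05 (28.6% of all features were), with *ORC6* (0.42) and *ORC1*, whose product contacts Sir1, at 0.30. None of the 4 partners of Sas2 and Hst1 passed (*SAS4*, *SAS5*, *SUM1* and *RFM1*, 0.09 to 0.17), with 0 at an adjusted p below 0.05 by edgeR.

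The supply of NAD, which Sir2 consumes, held a called fall. *PNC1*, the nicotinamidase that clears the Sir2 inhibitor nicotinamide, was at 837, 899 and 931 normalized counts in *RRP4* cells and 502, 559 and 444 in *rrp4-G226D* cells (−0.83, SE 0.08, adjusted p = 5.45e-08). Its genotypes were far apart, and it stayed lower by library size alone (−0.38). *NPT1*, which uses the nicotinic acid that Pnc1 makes, was lower by less (−0.38, adjusted p = 0.00021), a direction that turned to 0.07 by library size alone. Of the other sirtuin genes, *HST3* was higher (0.42, adjusted p = 5.05e-05) and *HST2* and *HST4* did not pass (−0.10 and −0.08).

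At the chromosome end itself, 6 of 11 telomere-binding and telomerase genes were higher and 2 lower at an adjusted p below 0.05, beside 28.6% and 31.0% of all features, with 0 called at 1.5-fold by edgeR. *TEL1*, the kinase that promotes elongation of short telomeres, rose most (123, 133 and 126 against 188, 182 and 183; 0.53, adjusted p = 3.45e-07). *EST1* and *EST2*, telomerase subunits, were at 0.34 and 0.35. *TLC1*, the telomerase RNA, was lower (−0.28, adjusted p = 0.00143 by edgeR), which turned to 0.17 by library size alone. By RT-qPCR relative to *ALG9*, the paper reports the opposite, significantly more *TLC1* in *rrp4-G226D* cells, in its mature and its extended form. Its RT-qPCR cells carried untagged plasmid copies of *RRP4* or *rrp4-G226D*, unlike the Myc-tagged copies sequenced here. The direction for *TLC1* thus differs with the scaling, and with the method and plasmid together, and the reason was not tested. The Ku genes differed from each other: *YKU80* was higher (0.35) and *YKU70* lower (−0.21), the latter turning to 0.23 by library size alone.

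Among chromatin factors, *ASF1*, a histone chaperone, was the gene called higher: 34.2, 34.3 and 36.3 normalized counts against 45.4, 63.3 and 57.1 (0.67, SE 0.10, adjusted p = 2.50e-05). The mutant libraries were all above the controls but spread, and without *rrp4-G226D* replicate 2 the value was 0.55, under the 1.5-fold limit. *RLF2*, the large subunit of the chromatin assembly factor CAF-1, rose by 0.49, and *HIR1*, *HIR2* and *HIR3* by 0.30 to 0.37. *ARD1* and *NAT1*, the N-terminal acetyltransferase that modifies Sir3, were lower (−0.49 and −0.31; −0.04 and 0.14 by library size alone). Of 8 genes of nucleolar silencing and anchoring, 4 were higher at an adjusted p below 0.05 (28.6% of all features were), led by *MLP1* and *MLP2* of the nuclear basket (0.46 and 0.52), and *CSM1* was lower (−0.31; 0.14 by library size alone). A list of 10 genes covers addition or removal of ubiquitin on histone H2B, on which Dot1 depends, and H3 methylation by Set1. In it *LGE1* (0.35), *SET1* (0.27) and *UBP10* (0.31), whose product removes the ubiquitin, were higher. *RAD6* was lower (−0.19, or 0.26 by library size alone), and 0 of the 10 were called at 1.5-fold by edgeR.

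The boundary of silent chromatin held the other called fall. *HTZ1*, the histone variant H2A.Z that borders subtelomeric silencing, was at 42.9, 43.9 and 46.1 normalized counts in *RRP4* cells and 26.01, 21.4 and 23.1 in the mutant. The groups were far apart (−0.92, SE 0.09, adjusted p = 1.34e-07), and the fall remained by library size alone (−0.47). *SWR1*, the remodeler that deposits it, was instead slightly higher (0.22), as was *YTA7* (0.51). Of 7 genes for corepressors and histone deacetylases outside the Sir complex, *TUP1* (−0.33) and *RPD3* (−0.34) were lower at an adjusted p below 0.05. Both were at 0.11 to 0.12 by library size alone. *HDA1* (0.20) and *HDA3* (0.33) were higher.

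**Figure D2:**
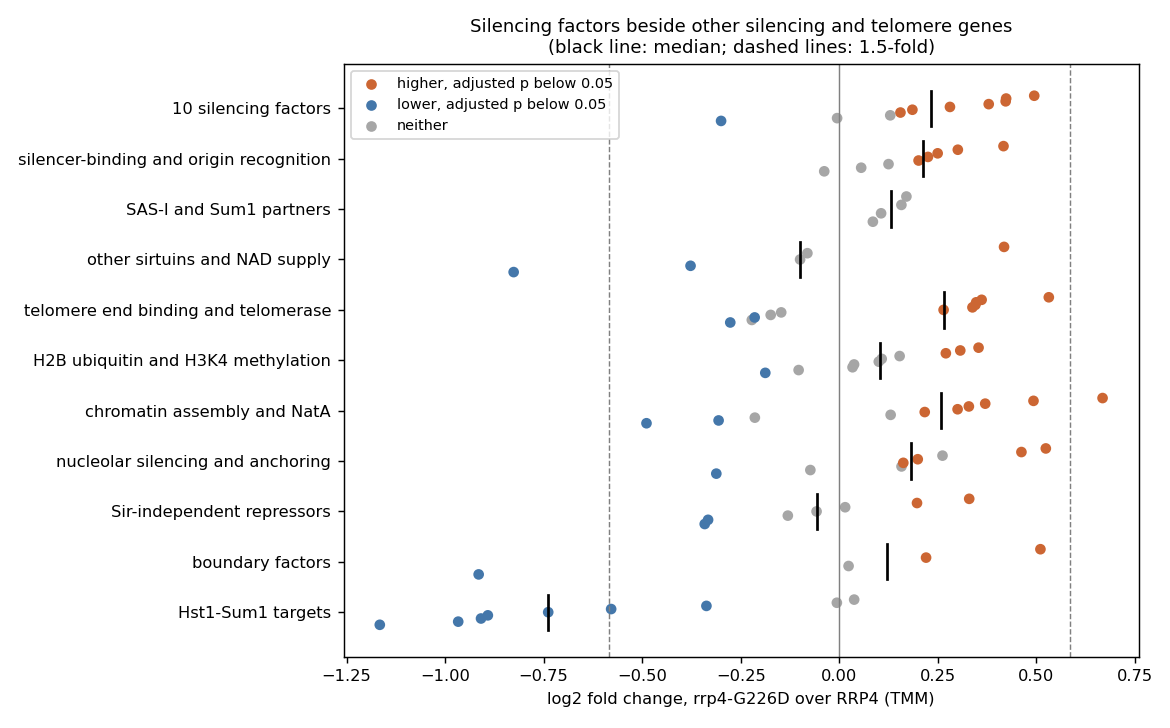
Log2 fold change of rrp4-G226D over RRP4 (horizontal axis, TMM) for the 10 silencing factors and each other list; points are genes, orange or blue at an adjusted p below 0.05 and grey otherwise, black lines are medians and dashed lines mark 1.5-fold. The silencing factors lie between −0.30 and 0.49, inside the dashed lines, as do nearly all others except PNC1, HTZ1, ASF1 and 5 BNA genes of the Hst1-Sum1 targets; by library size alone all points shift up together and SIR2 lies above 0.

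The silent mating loci gave next to no counts in either genotype. *HMRA1* at chrIII:293835-294321, which is unique in a MATα genome and whose first exon is printed above, had 0 counts in all 6 libraries. A count of 0 allows up to 3 counts per library, or 0.325 to 0.446 normalized counts in *RRP4* and 0.214 to 0.278 in *rrp4-G226D* cells, a limit for counting error only. *HMRA2* had 0 counts too. *HMLALPHA1* had 1 count over the 3 *RRP4* libraries and 0 in the mutant, and *HMLALPHA2* 1 in each genotype. The *HML* genes share their sequence with *MAT*, as *HMRA2* shares its own, so reads that map to several places may not have been counted: *MATALPHA1* had 0 counts in a MATα strain that made α-pheromone mRNA, and *MATALPHA2* 40 and 38. The limit for *HMRA1* is therefore the informative one, and none of the 4 loci passed the count filter for a test.

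*YFR057W*, the last gene before the chromosome VI end printed above (645 bases from it, stored as 0.645 kb) and a standard readout of Sir-dependent silencing, had 4 counts over the *RRP4* libraries and 6 over the *rrp4-G226D* libraries. Per library these were 0.363, 0 and 0.148 normalized counts against 0.185, 0.168 and 0.142, which overlapped, and a difference was not detectable at this depth.

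Of other genes near chromosome ends, more were called higher than lower in *rrp4-G226D* cells within 10 kb of an end, and as many in each direction at 10 to 20 kb. Many subtelomeric genes are near-copies of each other, so genes with at least 90% of their 100-base windows unique in the genome were taken: 131 within 20 kb of an end, of which 112 were tested. By edgeR at 1.5-fold, 27 were called higher and 14 lower, or 24.1% and 12.5%, beside 12.7% and 11.3% of all features and 2.77% and 13.2% of the 5018 tested genes over 50 kb from an end. Some of the 27 passed the count filter mainly through the mutant libraries and lend no support. *TDA8*, with 5, 7 and 3 counts against 20, 18 and 21, is an example. Under a filter of 50 mean counts, 19 were called higher and 12 lower, beside 654 and 700 of 6337 features. Of the 112, 44 were higher, 25 lower and 43 neither at any fold and an adjusted p below 0.05. The median log2 fold change was 0.76 within 5 kb (9 genes), 0.18 at 5 to 10 kb (25 genes), 0.05 at 10 to 20 kb (78 genes), −0.05 at 20 to 30 kb (123 genes), −0.13 at 30 to 50 kb (290 genes) and −0.09 beyond 50 kb. By library size alone the same medians were 1.20, 0.63, 0.50, 0.40, 0.32 and 0.36, so that beyond 20 kb the direction depends on the scaling. Under both scalings the medians fell with distance as far as 50 kb and were slightly higher beyond it, which is a description and was not tested.

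Within 5 kb, a window chosen after the data were seen, 6 of 9 tested genes were called higher and 0 lower. *COS12*, *AAD15* and *YIR043C* are among the 6 and had few counts in *RRP4* cells, so that they passed the count filter mainly through the mutant libraries, and their calls lend no support. Of the 6 tested genes that averaged 50 counts or more, 3 were called higher and 0 lower, with a median of 0.61. At 5 to 10 kb 10 of 25 were called higher and 3 lower, at 10 to 20 kb 11 of 78 in each direction, and at 20 to 30 kb 11 of 123 higher and 9 lower. Genes within 10 kb were tested on 18 of the 32 chromosome arms. Of the 18, 11 held a gene called higher, 3 held 1 called lower, and the median was above 0 on 15. The arm counts include *COS12*, *AAD15* and *YIR043C*, and so lend no support to a spread over arms. The counts beyond 5 kb were not limited to well-counted genes either. With repeated genes included, 20 of 31 tested genes within 5 kb were higher and 0 lower, with a median of 0.91, though reads of these copies may be split among them.

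**Figure D3:**
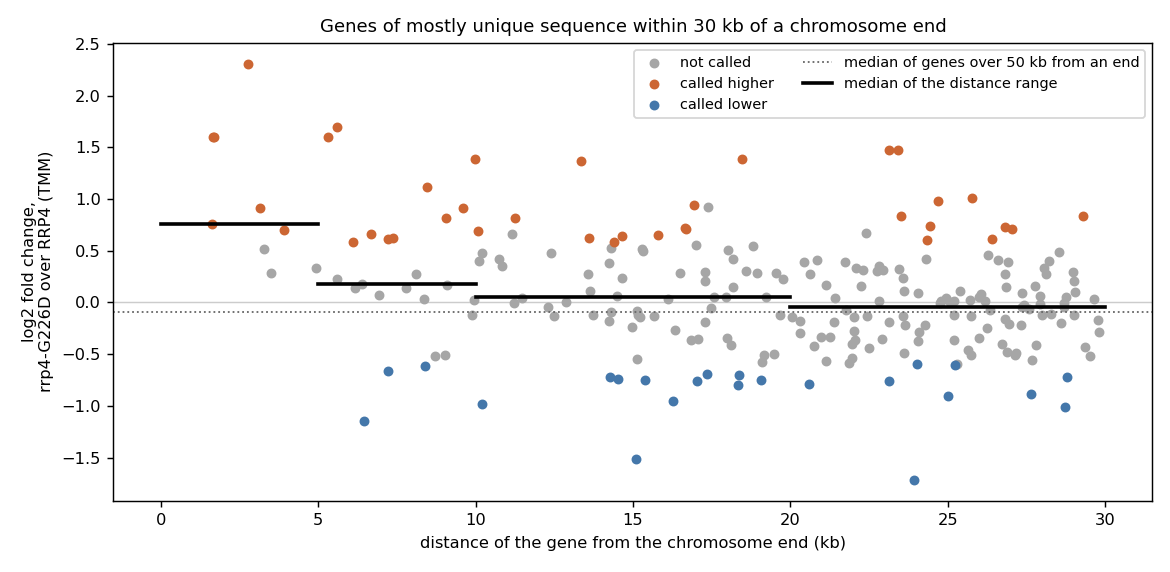
Log2 fold change of rrp4-G226D over RRP4 (vertical axis, TMM) against distance from the chromosome end (horizontal axis, kb) for tested genes with at least 90% unique windows; orange and blue points were called higher and lower at 1.5-fold, black lines are medians of each distance range and the dotted line is the median of genes over 50 kb from an end (−0.09). The 9 genes within 5 kb all lie above 0 with a median of 0.76 (0.61 for the 6 averaging 50 counts or more), and the black lines fall to −0.05 at 20 to 30 kb. Of all 7631 features tested, 3876 lie above 0. By library size alone all values shift up together, the line at 20 to 30 kb to 0.40.

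The 9 tested genes within 5 kb were each higher in all 3 mutant libraries than in any control, as were 2387 of the 7631 features tested. For *COS12*, *AAD15* and *YIR043C* this separation lends no support, as with their calls above. The 9 genes are described here in full after their values were seen, except *RDS1*, which the rule for naming genes also picks. *COS12*, of the subtelomeric *COS* family, 2.79 kb from the left end of chromosome VII, went from 2, 7 and 0 counts to 27, 16 and 26 (log2 fold change 2.31, SE 0.54, adjusted p = 0.00135). *AAD15*, an aryl-alcohol dehydrogenase-like gene, went from 13, 10 and 4 counts to 32, 38 and 55 (1.596, SE 0.32), and *YIR043C* from 7, 11 and 9 to 30, 40 and 56 (1.602, SE 0.30). These 3 low transcripts show the largest folds and the widest errors.

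The better-counted genes moved less. *RDS1*, a zinc cluster transcription factor gene 3.16 kb from the right end of chromosome III, was at 21.3, 19.9 and 24.7 normalized counts against 41.9, 37.2 and 44.0 (0.91, SE 0.10, adjusted p = 5.03e-07). Its neighbour *AAD3*, 1.64 kb from the same end, was at 10.2, 9.55 and 9.96 against 17.2, 14.8 and 18.0 (0.76, SE 0.13). *YIR042C* rose by 0.70. *COS10* (0.52), *IRC7* (0.34) and *YKL222C* (0.28) were higher at an adjusted p below 0.05 but by under 1.5-fold; *IRC7*, a cysteine lyase gene, is the next well-counted gene inward of *YFR057W*, at 79.96, 79.4 and 72.6 normalized counts against 106, 88.7 and 99.2. The remaining 8 of the 17 mostly unique genes within 5 kb were under the count filter, with 19 counts in all over the *RRP4* and 56 over the *rrp4-G226D* libraries. These are raw counts, and the mutant libraries had larger totals after TMM scaling (10804530 to 14034300, against 6726037 to 9219422 in *RRP4*).

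**Figure D4:**
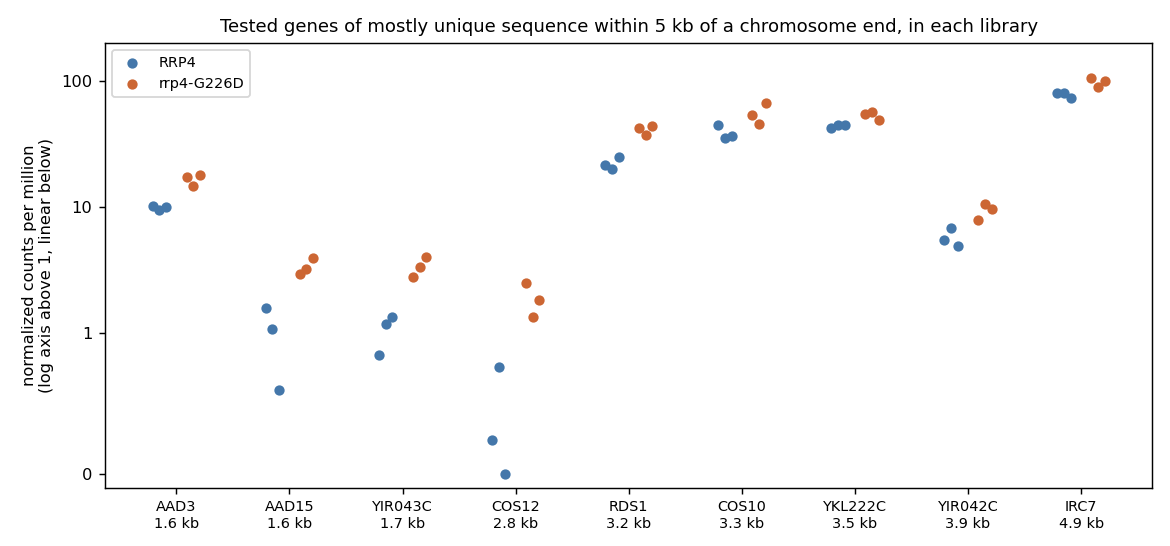
Normalized counts (CPM, vertical axis, logarithmic above 1 and linear below) of the 9 tested, mostly unique genes within 5 kb of a chromosome end, ordered by distance; points are libraries, blue for RRP4 and orange for rrp4-G226D. In every gene the orange points lie above the blue, from COS12 (0 to 0.759 against 1.35 to 2.50) to IRC7 (72.6 to 79.96 against 88.7 to 106). Over all features, 2387 of 7631 tested are separated in this way.

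The rule for naming genes within 20 kb (called, mostly unique, no overlap, 50 or more counts on average) gave 5 in each direction. Those that rose most were *FLO10*, a flocculin gene (20.5, 20.1 and 21.0 against 35.4, 40.7 and 41.6 normalized counts; 0.94), *YOL163W* (0.92), *RDS1* (0.91), *MAL33*, the activator of the maltose genes (0.82), and *YKR104W* (0.81). *FLO10* lies 17.0 kb from the end of chromosome XI beyond *SIR1* on the same arm. The 5 that fell most lay at 10.2 to 18.3 kb: *HXK1*, the hexokinase gene repressed by glucose (564, 693 and 736 against 239, 270 and 190; −1.51), *YML131W* (−0.98), *HYR1*, a thiol peroxidase gene (−0.95), *FDC1* (−0.80) and *IRC24* (−0.76). All 5 stayed lower by library size alone, by 0.32 to 1.07, and each of the 10 kept an adjusted p below 0.05 without any library.

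Summed over genes, the amount of RNA gave a different picture from the count of genes, since few genes carry most of it. Within 5 kb, the 17 mostly unique genes together were at 208, 199 and 196 normalized counts in *RRP4* cells and 291, 262 and 298 in *rrp4-G226D* cells, a ratio of 1.41 (exact permutation p = 0.1, the smallest possible). Within 20 kb, the 131 genes together were at 5499, 5575 and 5685 against 5047, 4915 and 4983, a ratio of 0.892 in which *HXK1* alone accounts for 564 to 736 counts in controls and 190 to 270 in the mutant (exact permutation p = 0.1). By library size alone the ratio within 20 kb turned to 1.22, and within 5 kb it was 1.93. The median shift of the 112 tested genes within 20 kb was positive in 3 of 3 mutant libraries (0.18, 0.15 and 0.18 on the log2 scale).

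The right arm of chromosome III holds both kinds of readout. *HMRA1*, 22.3 kb from the end and framed by silencers, stayed at 0 counts, and *YCR108C*, 0.432 kb from the end, had 1 count in 1 mutant library. Between them, *AAD3*, *RDS1*, *YCR101C* (0.62) and *EMA35* (0.59) were called higher. The genotypes overlapped in *YCR101C*, whose call was lost without *RRP4* replicate 1 (0.45, adjusted p = 0.113) and without *rrp4-G226D* replicate 2 (0.48, adjusted p = 0.0856). *EMA35* was at 1.501-fold, and 4 of the 6 fits without a library gave values under 1.5-fold (the lowest 0.48). *ADH7*, 6.47 kb from the end, was called lower on 12, 19 and 23 counts against 11, 13 and 13 (−1.15, SE 0.36, adjusted p = 0.0102), and without *RRP4* replicate 3 it was −0.81 (adjusted p = 0.0926). Inward of *HMR*, the nearest mostly unique gene, *YCR095W-A*, was called higher on few counts (1.82, 1.19 and 1.49 normalized counts against 2.78, 2.36 and 2.35; 0.73, adjusted p = 0.0387), a call that held in 1 of the 6 fits without a library (0.57 to 0.90). The next genes, *OCA4* and *CDC50*, overlapped between genotypes (−0.04 and −0.05, or 0.41 and 0.40 by library size alone).

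**Figure D5:**
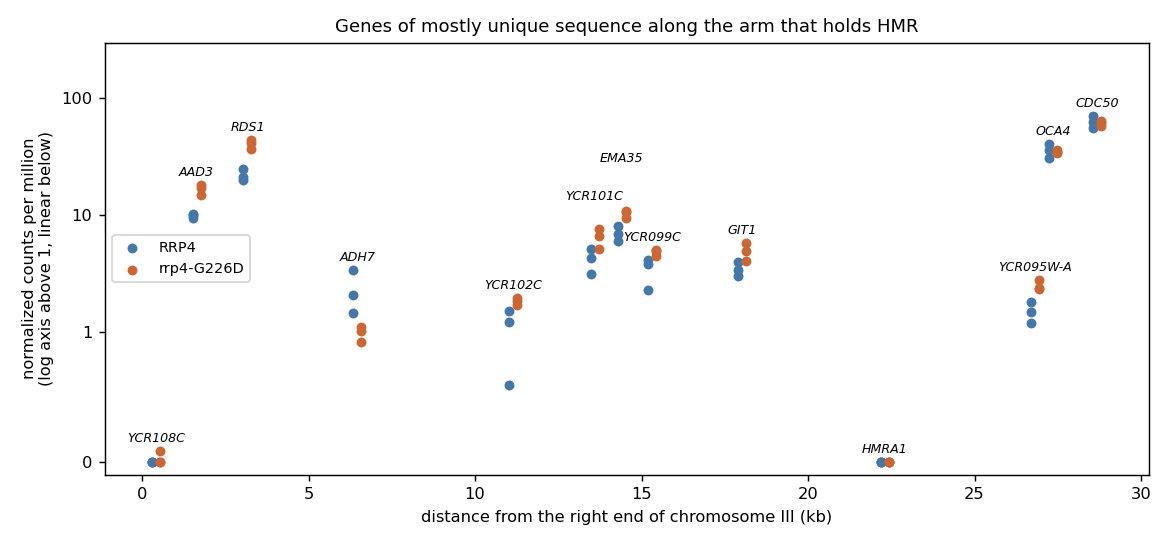
Normalized counts (CPM, vertical axis, logarithmic above 1 and linear below) of mostly unique genes against distance from the right end of chromosome III (horizontal axis, kb, points shifted slightly sideways by genotype); points are libraries, blue for RRP4 and orange for rrp4-G226D. AAD3 and RDS1 are higher in rrp4-G226D cells, by 0.76 and 0.91 on the log2 scale, ADH7 is lower, and HMRA1 at 22.3 kb is at 0 in all 6 libraries.

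Set side by side, *SIR2* mRNA was lower by 0.30 and RNA from the 9 tested genes within 5 kb of an end higher by a median of 0.76 on the log2 scale, or 0.61 for the 6 better-counted of them, while *SIR1*, *SIR3*, *SIR4*, *RIF1* and *RIF2* were higher by 0.16 to 0.49. The libraries fall into 2 clusters of 3 by genotype, so a relation of *SIR2* mRNA to end RNA across libraries cannot be tested. Within the mutant, the library with the least *SIR2* (replicate 2, 45.7) had a median shift of 0.75 within 5 kb, and the others (49.98 and 50.5) had 0.77 and 0.83. These are medians over 9 genes, 3 of them low in counts, with an SD of 0.04 between the 3 libraries. The values are a description, from which no relation can be read. *SIR2* mRNA and growth both differed between the genotypes, and their part in the RNA near ends was not tested.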

How the data were processed

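The authors depleted rRNA, made stranded libraries, aligned reads with STAR to R64 extended with CUTs and SUTs, and counted them with featureCounts 1.6.4 (submitters' notes). What they deposited are raw read counts for each feature of a library. The strand setting and the treatment of reads mapping to several places are not given in the sources used here. The authors' deposited table of a DESeq2 comparison (mean normalized signal, log2 fold change, its standard error, score, p-values) was used for gene names only. Names, positions and repeats came from RefSeq's R64 annotation, a later annotation release than the authors' R64-1-1; 6006 features had positions.

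The 10 members and all lists were chosen with earlier results of these data known. The test was edgeR 4.0.16's quasi-likelihood test in R 4.3.3 (TMM, filterByExpr, genotype only, 7631 features), checked on simulated data. SE is the log2 fold change over the square root of F. Ranges of ±1.96 SE are narrower than a 95% interval of that test. Alternatives were DESeq2 1.42.0, RLE, library size only, TMM over open reading frames, other filters and folds, other windows, and leaving out each library. Genes near ends were named by the 5 largest called changes in each direction; of other lists, those past the threshold. Replicate numbers did not pair the samples. The labels say triplicate cultures.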

Additional observations from a re-analysis of the deposited data

How the results depend on the processing

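With library size alone 7 members, 34 of the wider list and 58 genes near ends were called higher, 0 of the wider list and 1 near ends lower, the medians were 0.68 (members) and 0.64 (near ends), the summed level ratio was 1.22, and *SIR2* (0.15) and *SAS2* (0.44) reversed. TMM over open reading frames gave 4 of the wider list called higher, a near-end median of 0.27, a ratio of 0.941 and *SAS2* at 0.071. *SAS2*, near 0, also reversed under a filter of 50 mean counts (0.034), and ran from −0.053 to 0.018 when each library was left out. At any fold, 7 members were higher and 1 lower, 29 and 11 of the wider list, and 44 and 25 near ends; at 2-fold, 0 and 0 of the wider list and 9 and 2 near ends. The window set the near-end values: within 5 kb (chosen after seeing the data) 6 higher and 0 lower, median 0.76, ratio 1.41; of these, genes with 50 mean counts or more 3 higher and 0 lower, 0.61 and 1.39; within 10 kb 16 and 3, 0.43 and 1.15; within 30 kb 23 lower, 0.038 and 0.865; with repeated genes 48 higher, 0.28 and 0.945; for the outermost 10 open reading frames by name 56 higher. The near-end median was 0.17 with DESeq2, 0.17 without a filter and 0.099 with a mean count of at least 50. That last setting gave 19 genes near ends called higher and 12 lower. Leaving out each library gave 0 to 1 of the wider list called higher, 24 to 31 near ends higher, 13 to 17 lower, a member median of 0.17 to 0.28, a near-end median of 0.14 to 0.21 and a ratio of 0.885 to 0.900. Same-numbered libraries did not deviate together (correlations of 0.02, 0.07 and −0.07), and with the replicate block 7 members were higher and 1 lower at any fold, with 0 called. The cause of these shifts was not tested beyond the change of window, fold or scaling itself.

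Depth limits the silent loci and the outermost genes: 19 of 131 mostly unique genes within 20 kb were under the count filter, with at most 52 counts over 6 libraries.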
